A study of Mus musculus with 6 samples.

Results

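Neonatal cardiomyocytes, the heart muscle cells of newborn mice, were compared with neonatal cardiac fibroblasts and with adult cardiomyocytes. They make up 2 of the 6 arrays, and their group was taken from the source name in the labels. Genes were counted where both neonatal cardiomyocyte arrays lay above, or both below, all 4 other arrays: 858 of 18193 genes lay above (4.72%) and 1312 lay below (7.21%). These counts choose genes by their measured values, so they are a description and carry no test. With the replicate 1 arrays of the neonatal groups exchanged, as their titles have it, 599 genes lay above (3.29%) and 1171 below (6.44%). The size of the counts is therefore not particular to this grouping.

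Total RNA of freshly isolated heart cells from C57BL/6J mice was hybridised to 1-colour Affymetrix arrays, 2 per group. The neonatal cardiomyocytes and the fibroblasts came from animals of both sexes at postnatal day 1 and were parted by Percoll density separation after digestion with trypsin and collagenase. The adult cardiomyocytes came from males of 8 weeks and were released by Langendorff perfusion, so age, sex and isolation method differ together from both neonatal groups and cannot be told apart. Per the labels, dissociated cells were also plated to free fibroblasts of cardiomyocytes, with the dye TMRM as the check, although the design text speaks of fresh cells. Nothing in the labels ties replicates to separate litters, pools or isolations, so each p-value reflects only how far these arrays scatter, and that scatter may be technical.

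At birth, heart muscle cells still use part of the fetal contractile set, such as the slow skeletal form of troponin I, and the mouse heart replaces it with the adult cardiac form during postnatal growth. In the same period cardiomyocytes leave the cell cycle, move from glycolysis towards oxidation of fatty acids, and build the membrane system that couples excitation to contraction. Atrial light chains and natriuretic peptides, which are widespread in the fetal heart, become largely restricted to the atria.

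The values were log2 expression values per probe set, made by the authors with RMA, with no detection call. They are listed for each group in the order replicate 1, replicate 2, and a difference of 1 is a doubling on this scale. For replicate 1 of each neonatal group the title gives the opposite cell type, against the source name, the description and the cell type field of the same arrays. Grouped by source name, the median of 33 cardiac sarcomere genes lay at 12.90 and 12.43 in neonatal cardiomyocytes, 6.76 and 9.36 in fibroblasts, and 13.18 and 12.72 in adult cardiomyocytes. Fibroblast replicate 2 thus carried more cardiomyocyte transcript than fibroblast replicate 1. The median of 23 fibroblast markers ran the other way, at 7.37 and 8.09 in neonatal cardiomyocytes against 9.81 and 10.35 in fibroblasts and 6.62 and 8.23 in adult cardiomyocytes. The array medians lay between 5.601 and 5.667, and the number of arrays limits the precision. In bulk RNA, fewer cells of a type and less RNA per cell cannot be told apart, which holds for every value given here.

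Tnni1 encodes slow skeletal troponin I, the inhibitory subunit of the fetal thin filament. Casq1 encodes the skeletal form of calsequestrin, the calcium buffer of the sarcoplasmic reticulum, and Tox3 a nuclear protein with an HMG box. These genes mark the neonatal cardiomyocyte arrays, and Myh8, the perinatal myosin heavy chain, differed from each other group in the tests given further on, so the bases before their start sites are shown. The sequences are from RefSeq (GRCm38.p6), run 5′ to 3′ on the gene's strand and end at the last base before the start: Tnni1 at chr1:135799171-135799420 on the plus strand (the upstream of its annotated starts), Casq1 at chr1:172219896-172220145 on the minus strand, Tox3 at chr8:90348253-90348502 on the minus strand and Myh8 at chr11:67276874-67277123 on the plus strand. Capitals mark an E-box (CAGCTG) in the first 3 and a match to the MEF2 motif in Myh8.
Tnni1: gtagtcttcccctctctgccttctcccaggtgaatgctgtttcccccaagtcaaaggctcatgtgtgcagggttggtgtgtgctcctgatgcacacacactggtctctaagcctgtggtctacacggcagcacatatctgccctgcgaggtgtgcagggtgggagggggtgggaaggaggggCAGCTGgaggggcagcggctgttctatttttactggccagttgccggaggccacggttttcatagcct
Casq1: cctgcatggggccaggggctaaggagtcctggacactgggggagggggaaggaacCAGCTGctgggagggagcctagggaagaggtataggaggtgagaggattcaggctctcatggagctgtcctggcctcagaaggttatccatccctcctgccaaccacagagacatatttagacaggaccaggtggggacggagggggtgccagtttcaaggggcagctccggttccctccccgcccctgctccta
Tox3: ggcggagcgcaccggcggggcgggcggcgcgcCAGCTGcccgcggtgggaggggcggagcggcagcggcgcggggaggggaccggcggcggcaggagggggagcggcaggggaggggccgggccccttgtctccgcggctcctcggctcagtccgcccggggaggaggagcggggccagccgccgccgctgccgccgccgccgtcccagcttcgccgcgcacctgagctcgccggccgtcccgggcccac
Myh8: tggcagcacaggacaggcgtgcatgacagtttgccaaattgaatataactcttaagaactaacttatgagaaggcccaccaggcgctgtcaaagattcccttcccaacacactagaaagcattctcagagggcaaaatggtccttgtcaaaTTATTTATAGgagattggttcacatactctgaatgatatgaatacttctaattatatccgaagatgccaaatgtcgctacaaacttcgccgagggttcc
The E-box began 68 bases before the start in Tnni1, 195 in Casq1 and 218 in Tox3; its letters read the same on both strands. Over windows from 250 bases before to 50 after the start, searched on both strands, it occurred in 2716 of 14452 genes on the array with a promoter entry (18.8%), in 18% of the genes above all other arrays and in 20.2% of those below. The match in Myh8 began 99 bases before the start, overlapped a TATAAA match on the other strand, and the MEF2 motif occurred in 2.51% of array genes. A match in these windows is a description of letters and not a binding site.

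Tnni1 read 13.86 and 13.15 in neonatal cardiomyocytes, 6.80 and 9.53 in fibroblasts, and 5.42 and 5.25 in adult cardiomyocytes. Both neonatal cardiomyocyte arrays were high, with no overlap, and fibroblast replicate 2 was the highest of the others. The neonatal cardiomyocyte mean was 13.50 ± 0.50 (SD, n = 2), above fibroblasts by 5.34 (limma SE 0.89, adjusted p = 0.0725 after Benjamini-Hochberg over all genes), which missed the threshold of 0.05. It was above adult cardiomyocytes by 8.17 (SE 0.89), and against this group Tnni1 rose past the threshold (limma adjusted p = 0.0278). Tnni3, the cardiac troponin I that takes over this role in the adult, read 13.58 and 13.71 in neonatal cardiomyocytes, 6.07 and 10.86 in fibroblasts and 13.88 and 14.06 in adult cardiomyocytes. The neonatal arrays thus carried both forms near the top of the scale, with Tnni3 just below its adult level.

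Casq1 read 10.56 and 11.08 in neonatal cardiomyocytes, 5.42 and 6.71 in fibroblasts, and 7.25 and 6.71 in adult cardiomyocytes. It rose past the limma threshold against fibroblasts, by 4.75 (SE 0.49, adjusted p = 0.0424), and against adult cardiomyocytes, by 3.84 (SE 0.49, adjusted p = 0.0346). Its cardiac counterpart Casq2 lay at 12.65 and 12.09, close to the adult 12.63 and 12.37, and at 6.27 and 8.99 in fibroblasts. Tox3 read 9.74 and 9.79, against 4.10 and 5.78 in fibroblasts and 6.46 and 6.77 in adult cardiomyocytes. Its arrays did not overlap either, and Tox3 rose against fibroblasts (4.82, SE 0.55, limma adjusted p = 0.0441), while the 3.15 against adult cardiomyocytes missed the threshold (adjusted p = 0.0626; 0.0487 with the replicate number as a block). All 3 markers were thus highest on the arrays whose source name is neonatal cardiomyocytes. Without both neonatal replicate 1 arrays the differences from fibroblasts were 4.37 for Casq1 and 4.01 for Tox3, and from adult cardiomyocytes 7.82 for Tnni1 and 4.10 for Casq1, and limma called 0 genes in either comparison (lowest adjusted p over all genes 0.124, with 1461 genes at an unadjusted p under 0.05 against fibroblasts and 3845 against adult cardiomyocytes). Grouped by title, the differences from fibroblasts turned to −0.82 for Tox3 and −0.39 for Casq1.

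**Figure D1:**
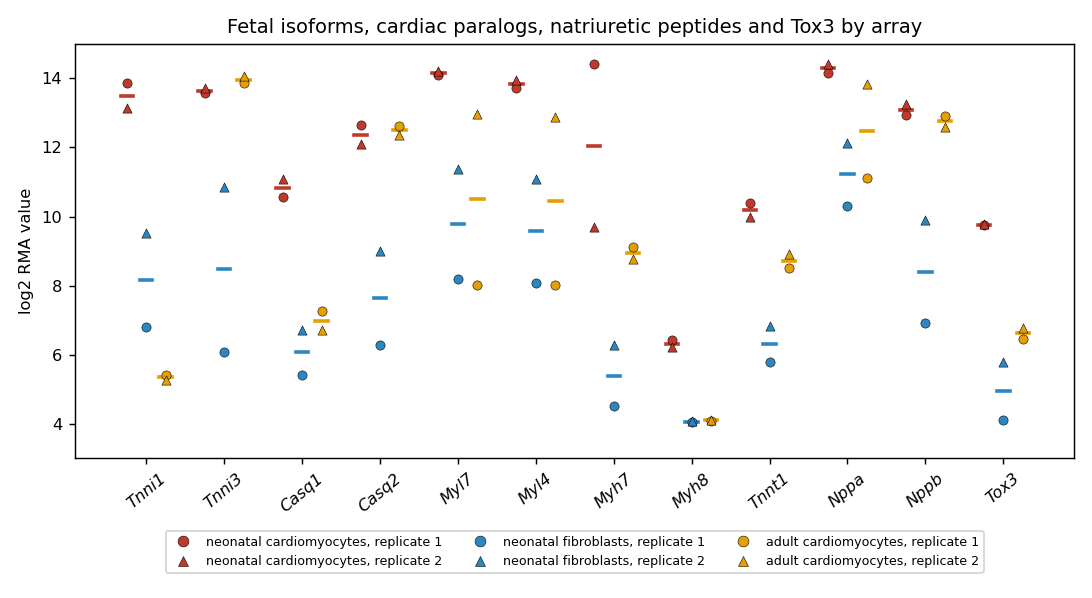
Log2 RMA value (vertical axis) of 12 genes on each array, by group; circles are replicate 1, triangles replicate 2 and bars the group means. Both neonatal cardiomyocyte arrays are the highest for every gene but Tnni3, where they lie below both adult arrays, and Casq2, where they overlap them.

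Against the mean of both other groups, limma called 0 genes higher (0%) and 0 lower (0%) at an adjusted p under 0.05. At an unadjusted p under 0.05, 1195 genes were higher (6.57%) and 802 lower (4.41%), and the lowest adjusted p was 0.0996, for Rxfp1 and Myh8. The comparison with each group gave calls: 123 genes were higher (0.676%) and 26 lower (0.143%) than in fibroblasts, and 222 were higher (1.22%) and 196 lower (1.08%) than in adult cardiomyocytes. Both comparisons use the same neonatal cardiomyocyte arrays, so their calls are not independent. With the replicate number as a block, 0 genes remained past the threshold against fibroblasts (lowest adjusted p = 0.0537, 3678 genes at an unadjusted p under 0.05), while 373 were higher and 234 lower than in adult cardiomyocytes. Every call against fibroblasts given here is therefore lost with the block. The calls also rested on single arrays. Against fibroblasts limma called 0 genes when neonatal cardiomyocyte replicate 1 (1909 at an unadjusted p under 0.05), fibroblast replicate 1 (1964) or either adult array (2532 each) was left out, 254 higher and 169 lower without fibroblast replicate 2, and 290 and 147 without neonatal cardiomyocyte replicate 2. Against adult cardiomyocytes it called 0 without neonatal cardiomyocyte replicate 2 (2729 at an unadjusted p under 0.05), adult replicate 1 (2572) or adult replicate 2 (3303), 70 higher and 93 lower without neonatal cardiomyocyte replicate 1, and 95 and 69 without either fibroblast array.

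Of the genes above all other arrays, 142 (16.6%) had group means more than 1 log2 unit above the nearer group, 35 (4.08%) more than 2 and 19 (2.21%) more than 3. Below, the numbers were 109 (8.31%), 19 (1.45%) and 4 (0.305%). The nearer group was the fibroblasts for 437 of the genes above and the adult cardiomyocytes for 421, so neither group was consistently nearer. For the genes below it was the fibroblasts for 874 and the adult cardiomyocytes for 436. Many genes below were dim: 626 of 1312 (47.7%) averaged under 5 over the 6 arrays, against 75 of 858 above (8.74%). At the edge of the count, Nsrp1 read 8.64 and 8.66 against a highest other array of 8.64, and Zfp938 read 6.74 and 6.78 against 6.74; both still count as above before rounding. Wipf2 (7.37 and 7.99 against 7.37) and 1700015C15Rik (3.64 and 3.64 against 3.64) lay just outside. Below, 1810046K07Rik and Thap2 were just inside, with the nearest arrays equal at 4.36 and at 7.29 after rounding, and Gsg1 (4.35) and Unc5d (3.13) were just outside.

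**Figure D2:**
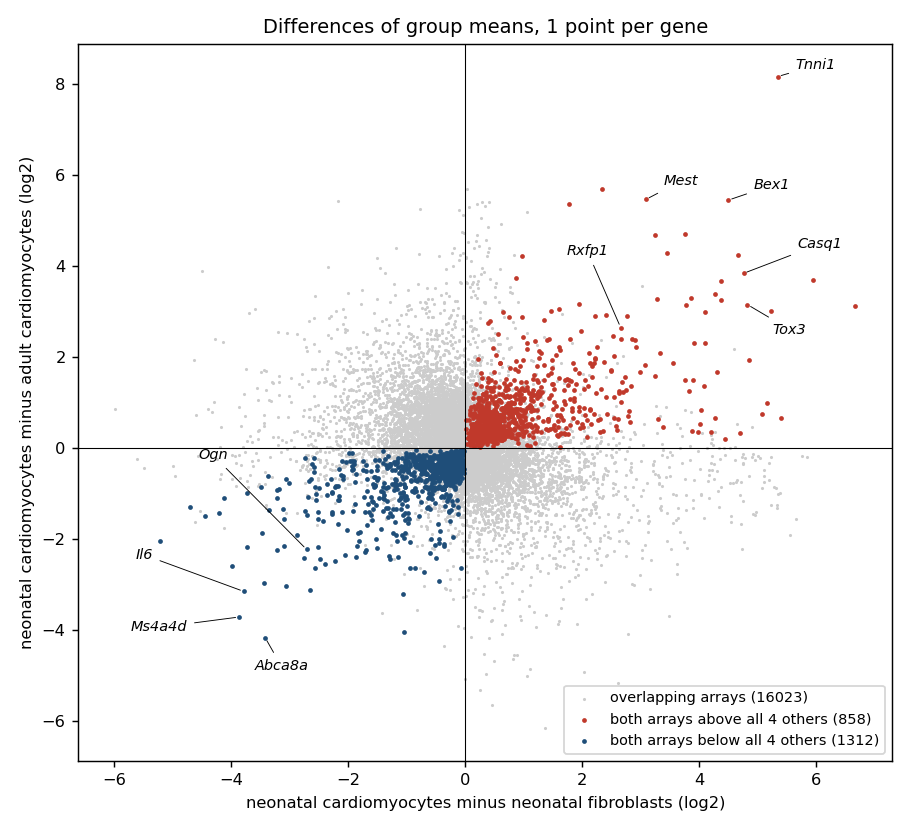
Each point is 1 gene: the neonatal cardiomyocyte mean minus the fibroblast mean (horizontal, log2) against the neonatal minus the adult cardiomyocyte mean (vertical, log2). Red marks the 858 genes above and blue the 1312 genes below all 4 other arrays; Tnni1, at 5.34 and 8.17, is the topmost point.

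Among the genes above or below all other arrays, 8 were higher and 2 lower at an adjusted p under 0.05 against fibroblasts and also against adult cardiomyocytes; apart from Casq1, they are named after their values were seen. Rxfp1, the receptor of the hormone relaxin, read 6.23 and 6.06 in neonatal cardiomyocytes, 3.58 and 3.40 in fibroblasts, and 3.52 and 3.47 in adult cardiomyocytes. Both other groups were at the low end of the scale, and the replicates of each group lay close together. It rose by 2.66 against fibroblasts (SE 0.17, limma adjusted p = 0.0424) and by 2.65 against adult cardiomyocytes (SE 0.17, limma adjusted p = 0.0166). Myh8 showed the same form, at 6.42 and 6.21 against 4.05 and 4.06 in fibroblasts and 4.08 and 4.10 in adult cardiomyocytes. It rose by 2.26 and 2.22 (SE 0.17; limma adjusted p = 0.0424 and 0.0183). Prkag2, a regulatory subunit of the energy sensor AMP-activated kinase, lay higher on the scale, at 10.36 and 9.93 against 8.18 and 8.16 in fibroblasts and 7.55 and 7.61 in adult cardiomyocytes. Its differences were 1.98 and 2.56 (limma adjusted p = 0.0424 and 0.0198). Adamts8, a secreted metalloproteinase, rose by 2.37 and 1.89, Ppm1e, a protein phosphatase, by 3.54 and 1.88, the small GTPase gene Rab33a by 1.75 and 1.38, and the predicted gene Gm15934 by 2.50 and 1.70 (limma adjusted p between 0.0293 and 0.0487).

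Ogn and Ccl6 were the genes that fell in both comparisons. Ogn, which encodes the matrix proteoglycan osteoglycin, read 8.76 and 8.55 in neonatal cardiomyocytes, 10.98 and 11.76 in fibroblasts, and 10.81 and 10.97 in adult cardiomyocytes. It fell by 2.71 against fibroblasts (SE 0.30, limma adjusted p = 0.0428) and by 2.23 against adult cardiomyocytes (SE 0.30, limma adjusted p = 0.0391). Ccl6, a chemokine of myeloid cells, read 5.75 and 5.06, against 7.98 and 7.86 in fibroblasts and 7.32 and 7.84 in adult cardiomyocytes, and fell by 2.51 and 2.17 (limma adjusted p = 0.0492 and 0.0441). With the replicate block, the adjusted p of these 10 genes against fibroblasts lay between 0.0537 and 0.0677, and Ccl6 (0.0524), Rab33a (0.0514) and Ppm1e (0.0538) also lost their call against adult cardiomyocytes. Over all alternatives the adjusted p of Rxfp1 against adult cardiomyocytes ranged from 0.00959 to 0.528, and that of Ogn from 0.0319 to 0.599.

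The 12 genes that lay farthest above both other groups were ranked by the smaller of the 2 differences of means. After Tnni1 they were Bex1, Cited1, Casq1, Sphkap, Sln, Myl7, Cracd, Myl4, Slitrk4, Lpar3 and Kcne1. Apart from the calls of Tnni1 and Casq1, their values are given with no verb of change. Bex1, a small adaptor protein gene, read 12.96 and 11.53 in neonatal cardiomyocytes, 6.20 and 9.30 in fibroblasts and 7.23 and 6.35 in adult cardiomyocytes. Cited1, a transcriptional co-regulator, read 10.37 and 8.16 against at most 5.06 on any other array. Its neonatal replicates differed from each other by more than the 4 other arrays did among themselves. Sphkap, which anchors protein kinase A, read 7.80 and 11.01, and Lpar3, a receptor for lysophosphatidic acid, 8.50 and 6.13, so here too the neonatal replicates stood apart, in opposite directions. Kcne1, the accessory subunit of the slow delayed rectifier potassium channel, read 10.62 and 9.15 against 4.19 and 6.86 in fibroblasts and 6.61 and 6.66 in adult cardiomyocytes. Cracd, an inhibitor of actin capping, is uncertain: only 1 of its 5 probe sets had the sign given here.

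The atrial genes among the 12 separated the adult replicates from each other. Sln, whose small membrane protein sarcolipin inhibits the calcium pump, read 12.46 and 12.97 in neonatal cardiomyocytes and 6.04 and 11.99 in adult cardiomyocytes. Myl7, the atrial regulatory light chain, read 14.09 and 14.23 against 8.20 and 11.37 in fibroblasts and 8.01 and 12.98 in adult cardiomyocytes. Myl4, the atrial essential light chain, read 13.73 and 13.96 against 8.07 and 11.09, and 8.02 and 12.89. In each of the 3 genes adult replicate 2 lay close under the neonatal level and adult replicate 1 far below it. Nppa, the atrial natriuretic peptide, did likewise, at 14.17 and 14.42 on the neonatal arrays against adult values of 11.11 and 13.84.

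**Figure D3:**
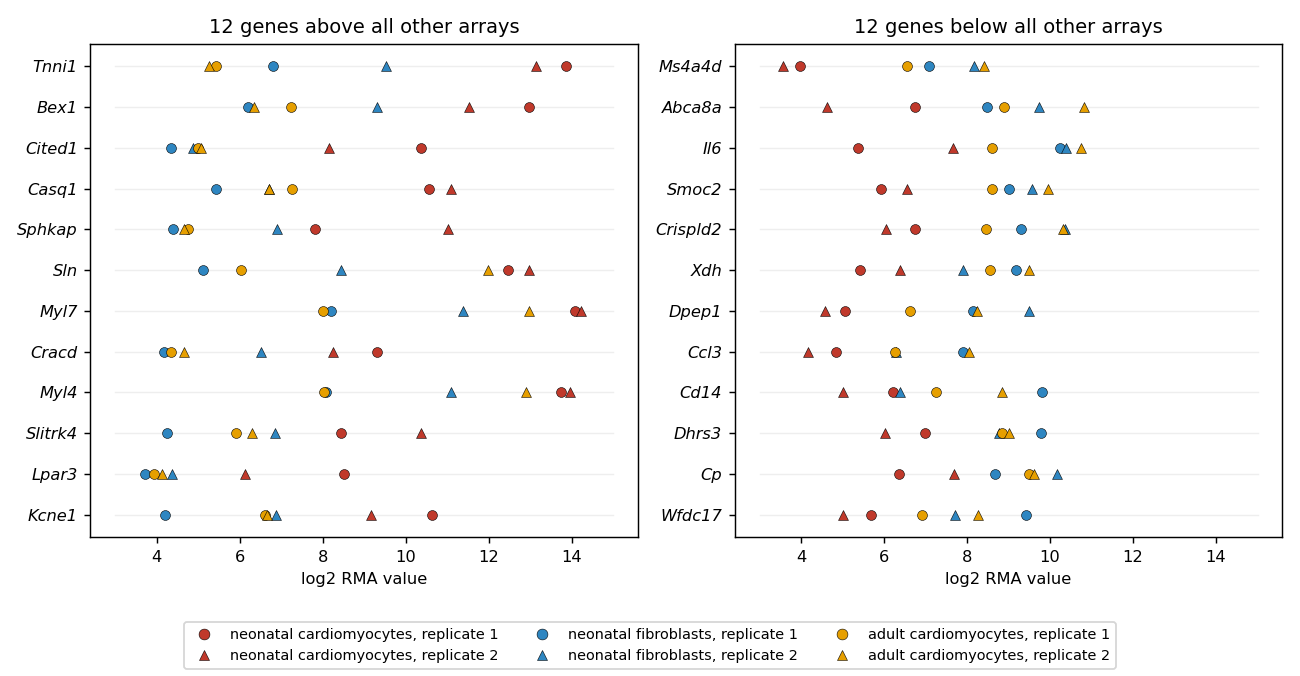
Log2 RMA value (horizontal axis) on each array of the 12 genes farthest above (left) and the 12 farthest below (right) both other groups; colours mark groups, circles replicate 1 and triangles replicate 2. In Sln, Myl7 and Myl4 the adult replicate 2 triangle lies beside the neonatal cardiomyocyte symbols.

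The 12 genes farthest below both groups were Ms4a4d, Abca8a, Il6, Smoc2, Crispld2, Xdh, Dpep1, Ccl3, Cd14, Dhrs3, Cp and Wfdc17. None was past the limma threshold in either comparison without the replicate block. With it, Smoc2 passed against adult cardiomyocytes (limma adjusted p = 0.0311, against 0.0595 without). Dhrs3 also passed there, at the edge of the threshold (limma adjusted p of 0.05 after rounding, against 0.0705 without). Ms4a4d, a membrane protein of the MS4A family, read 3.97 and 3.55 in neonatal cardiomyocytes, 7.08 and 8.17 in fibroblasts and 6.54 and 8.41 in adult cardiomyocytes, a mean difference of −3.86 and −3.72. Il6, the inflammatory cytokine, read 5.37 and 7.66, against 10.23 and 10.38, and 8.60 and 10.74. Smoc2, a secreted calcium-binding matrix protein, read 5.93 and 6.55, against 9.02 and 9.57, and 8.60 and 9.96. These genes were at intermediate or high levels in both other groups, and adult replicate 2 was the higher adult array in each. Ccl3, a macrophage chemokine, read 4.85 and 4.17, against 7.89 and 6.29, and 6.27 and 8.04. Cd14, the lipopolysaccharide co-receptor of myeloid cells, read 6.22 and 5.01, against 9.80 and 6.39, and 7.26 and 8.85, so its gap to fibroblast replicate 2 was small. Cp, the copper-carrying ceruloplasmin, read 6.35 and 7.69, against 8.67 and 10.17, and 9.50 and 9.62, and all 8 of its probe sets had this sign.

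Gene lists were described by how many of their measured members lay above or below all other arrays, beside 4.72% and 7.21% of all genes. In lists that are low in fibroblasts, a member lies above once it passes the adult arrays. The share of all genes is only a loose measure for such lists. Where 1 array is left out, the share of all genes rises too, and a list's count is to be read against that share: 11.8% above and 17.5% below without neonatal cardiomyocyte replicate 1, 12% and 18.7% with replicate 2 of that group left out, 6.48% and 11.5% without fibroblast replicate 1, 8.33% and 11.9% without fibroblast replicate 2, 6.71% and 9.62% without adult replicate 1, and 15.2% and 23.4% without both neonatal replicate 1 arrays. Counts of list members past the limma threshold stand beside 0.676% higher and 0.143% lower against fibroblasts and 1.22% and 1.08% against adult cardiomyocytes. Of 18 slow skeletal and fetal sarcomere isoforms, 7 (38.9%) lay above and 0 below: Tnni1, Myl7, Myl4, Myh7, Myh8, Myl1 and Tnnt1. The list's median difference was 2.08 against fibroblasts and 0.95 against adult cardiomyocytes, where all genes had −0.02 and −0.09. Tnnt1, slow skeletal troponin T, read 10.39 and 9.99 against 5.77 and 6.82 in fibroblasts and 8.50 and 8.90 in adult cardiomyocytes, and rose against fibroblasts (3.89, limma adjusted p = 0.0424). Myh7, the slow myosin heavy chain of the fetal ventricle, read 14.41 and 9.70, the widest spread between neonatal replicates of these 7 genes, against 4.51 and 6.27 and 9.11 and 8.76. Myl1, a fast skeletal light chain, read 12.12 and 11.81 against 6.22 and 8.01, and 9.36 and 10.71. Of the 18, 2 rose against fibroblasts (Myh8 and Tnnt1) and 2 against adult cardiomyocytes (Tnni1 and Myh8).

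The atrial, conduction and natriuretic list had 7 of 15 members above (46.7%) and 0 below, with none past the limma threshold in either comparison; at an unadjusted p under 0.05, 6 were higher against the mean of both groups and 0 lower. Beside Nppa they were Dkk3, the gap junction genes Gja5 and Gjc1, Nr2f1, Stard10 and Nppb. Nppb, the B-type natriuretic peptide, read 12.94 and 13.25 against 6.90 and 9.91 in fibroblasts and 12.91 and 12.60 in adult cardiomyocytes, so its margin over the adult arrays was narrow. Dkk3 and Gjc1 were also near the edge: their lower neonatal cardiomyocyte arrays read 7.99 and 9.77, and the highest other arrays 7.96 and 9.57. The number above reached at most 8 when single arrays, or both neonatal replicate 1 arrays, were left out. It could not fall below 7, because fewer arrays can only raise it.

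Of 33 cardiac sarcomere and Z-disc genes, 5 (15.2%) lay above: Synpo2l, Ankrd1, Smpx, Ldb3 and Tnnt2. Tnnt2 was almost level with the adult arrays, at 14.33 and 14.31 against 14.31 and 14.28. Its difference from adult cardiomyocytes was 0.03 (limma adjusted p = 0.977). The list of 33 genes lay 4.34 above fibroblasts in the median and 0.19 below adult cardiomyocytes (−0.19). Against fibroblasts 5 members rose, among them Tmod1, which caps actin filaments (12.11 and 11.88 against 6.76 and 7.74, adjusted p = 0.0424 by limma), and against adult cardiomyocytes 1 fell, Myot, the Z-disc protein myotilin (4.40 and 3.80 against 10.55 and 8.93, limma adjusted p = 0.0246). Ankrd1, a titin-associated stress-responsive protein, read 13.70 and 14.18 against 12.43 and 13.22, and 13.30 and 12.69. The count above was 13 without neonatal cardiomyocyte replicate 2 and 8 without adult replicate 1. Leaving out an array can only raise such a count.

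Of 35 cardiac transcription factors, 7 (20%) lay above (Tox3, Myocd, Irx2, Tbx5, Casz1, Smarcd3 and Srf) and 1 below (Heyl). Myocd, the coactivator of serum response factor, read 10.22 and 10.71 against 4.88 and 7.91 in fibroblasts and 8.95 and 9.26 in adult cardiomyocytes, but only 1 of its 2 probe sets had this sign. Tbx5 read 8.94 and 7.82 against 5.82 and 6.10, and 7.65 and 7.61. Against fibroblasts 4 factors rose: Tox3, Casz1 (2.27), Prdm16 (3.05) and Smyd1 (4.75). Against adult cardiomyocytes Tbx20 rose (1.88, limma adjusted p = 0.0363). The count above was 18 without neonatal cardiomyocyte replicate 2, 11 without neonatal cardiomyocyte replicate 1, 11 without adult replicate 1 and 13 without both neonatal replicate 1 arrays.

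In calcium handling, 4 of 27 members of the sarcoplasmic reticulum calcium list lay above (14.8%: Casq1, Sln, Slc8a1 and Ryr3) and 1 below (Stim1). Without both neonatal replicate 1 arrays 7 lay above. The list median was 1.66 against fibroblasts and −0.19 against adult cardiomyocytes. Slc8a1, the sodium-calcium exchanger, read 11.04 and 10.99 against 6.08 and 8.13 in fibroblasts and 8.70 and 8.72 in adult cardiomyocytes. Hrc, a calcium-binding protein of the sarcoplasmic reticulum, was intermediate: it rose against fibroblasts by 3.16 (limma adjusted p = 0.0459) and fell against adult cardiomyocytes by 3.10 (limma adjusted p = 0.0332). Of 31 ion channel genes, 6 lay above (19.4%) and 2 below (6.45%). The count below was 4 without neonatal cardiomyocyte replicate 1 and 6 without both neonatal replicate 1 arrays. The median of these channels was 1.72 above fibroblasts and 0.67 below adult cardiomyocytes (−0.67). The 6 above were Kcne1, Cacna2d2, the T-type calcium channels Cacna1h and Cacna1g, Kcnj5 and Kcna4. For Cacna2d2, only 1 of 3 probe sets had a higher mean than in both other groups. Cacna1h read 8.09 and 6.28 against 4.40 and 4.66 in fibroblasts and 6.15 and 6.19 in adult cardiomyocytes, and Cacna1g 7.89 and 8.02 against 5.63 and 6.23, and 7.21 and 6.95. Kcnj3 (5.07), Kcnq1 (2.84) and Cacnb2 (4.27) rose against fibroblasts and Kcne4 fell (−4.70). The channels that fell against adult cardiomyocytes were Kcnd2 (−3.21), Kcnd3 (−2.94) and Scn4b (−3.49), subunits of the transient outward potassium and the sodium current. Of 23 intercalated disc genes 5 lay above (21.7%), with Pkp2, the desmosomal plakophilin, at 11.95 and 12.54 against 9.17 and 9.70, and 11.82 and 11.50; the count was 8 without neonatal cardiomyocyte replicate 2 or without adult replicate 1.

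**Figure D4:**
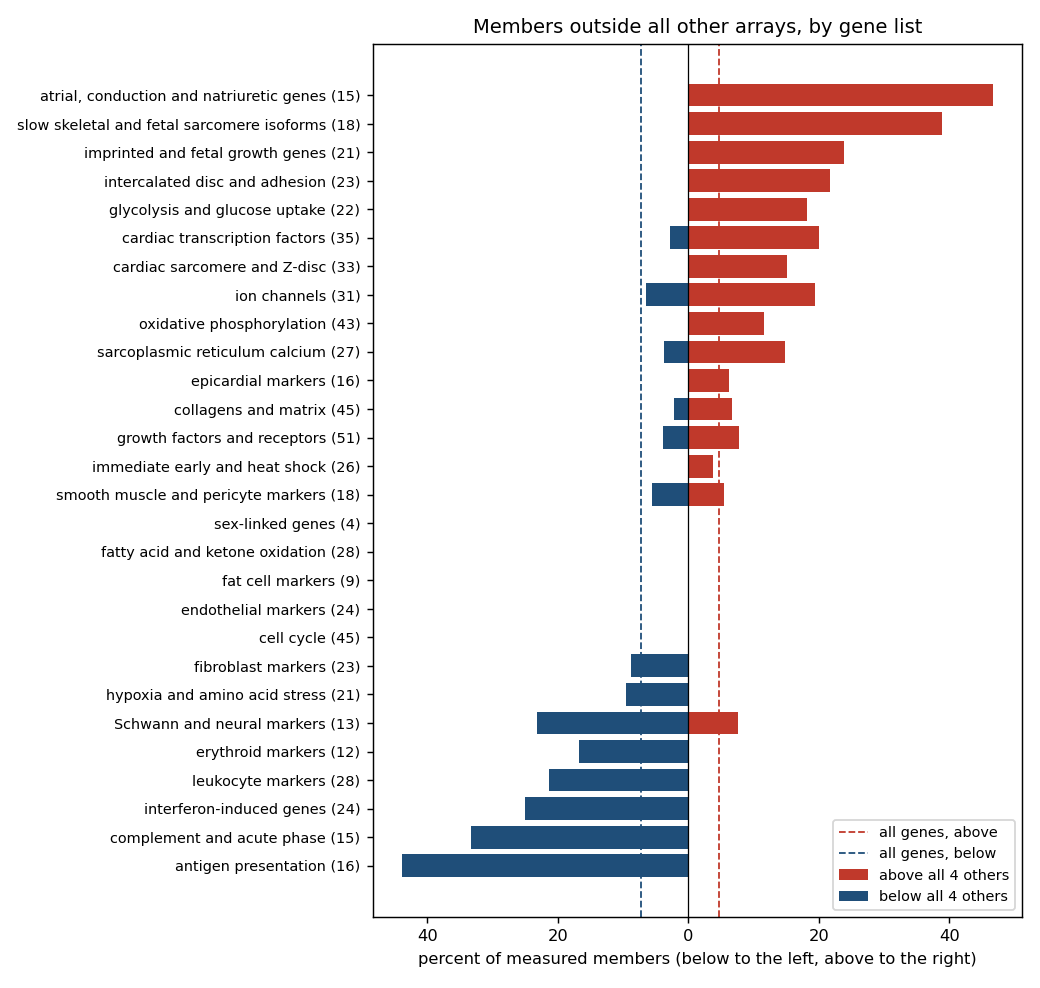
Percent of the measured members of each list (number in brackets) with both neonatal cardiomyocyte arrays above (right) or below (left) all 4 others; dashed lines give the same for all genes, 4.72% above and 7.21% below. Atrial and fetal sarcomere lists reach 46.7% and 38.9% above, and antigen presentation 43.8% below.

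Cell cycle genes differed from the patterns above. Of 45 measured, 0 lay above and 0 below all other arrays, and the neonatal cardiomyocyte and fibroblast medians interleaved (9.50 and 8.81 against 8.84 and 9.56). Against adult cardiomyocytes 27 rose and 0 fell, beside 1.22% and 1.08% of all genes, with a list median of 3.04, whereas against fibroblasts 0 rose and 0 fell by limma and the median was −0.04; at an unadjusted p under 0.05, 31 were higher and 0 lower than the mean of both groups, beside 6.57% and 4.41% of all genes. Of the 27, Prc1 (limma adjusted p = 0.0517), Racgap1 (0.0529) and Tk1 (0.0542) lost their call with the replicate block. Cdk1, the mitotic kinase, read 10.44 and 9.79 in neonatal cardiomyocytes, 9.50 and 10.80 in fibroblasts and 4.56 and 5.44 in adult cardiomyocytes. Birc5 (survivin) rose by 5.70 and Plk1 by 2.77 against adult cardiomyocytes (limma adjusted p = 0.0181 and 0.0293). Leaving out fibroblast replicate 2 put 15 members above (33.3%, beside 8.33% of all genes), and leaving out neonatal cardiomyocyte replicate 2 put 20 there (44.4%, beside 12%). The fibroblast and leukocyte transcripts on the neonatal arrays, given further on, stand beside these values; their part in the cell cycle signal was not tested.

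Of 21 imprinted and fetal growth genes, 5 lay above (23.8%): Mest, Igf2r, Plagl1, Peg3 and Nnat. Mest read 13.12 and 11.53 against 8.73 and 9.76 in fibroblasts and 6.50 and 7.22 in adult cardiomyocytes. Plagl1, an imprinted zinc finger factor, read 13.54 and 13.29 against 12.56 and 12.34, and 8.92 and 9.45. Mest (5.47), Plagl1 (4.23), Peg3 (3.74) and Rian (2.85) rose against adult cardiomyocytes, and Rian, an imprinted noncoding RNA, fell against fibroblasts (−2.58, limma adjusted p = 0.0459). The count above was 12 without neonatal cardiomyocyte replicate 2.

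In metabolism, the neonatal cardiomyocytes mostly lay between the other groups. None of 28 genes of fatty acid and ketone oxidation lay above or below; the list median was 1.61 above fibroblasts and 1.34 below adult cardiomyocytes (−1.34). Against adult cardiomyocytes 3 fell (Bdh1 −3.79, Ech1 −2.59 and Decr1 −1.83), and 0 rose; with the replicate block Ech1 (limma adjusted p = 0.0542) and Decr1 (0.0534) lost their call. Of 43 oxidative phosphorylation genes 5 lay above (11.6%), among them Cox7c and Cox8a, subunits of cytochrome oxidase. The list median was 1.49 above fibroblasts and 0.47 below adult cardiomyocytes (−0.47). The probe set of Cox7c was dim for this list: it read 6.83 and 7.53 in neonatal cardiomyocytes, where the list medians were 12.95 and 12.52. Cox8a had a higher mean than in both other groups in 2 of its 3 probe sets. Of 22 glycolysis genes 4 lay above (18.2%): Aldoc, Pfkp, Pgk1 and Ldha. The count was 9 without neonatal cardiomyocyte replicate 2. The median of the 22 was 1.15 against fibroblasts and −0.18 against adult cardiomyocytes. For Aldoc, only 1 of 2 probe sets had a higher mean than in both other groups. Pfkp, the platelet form of phosphofructokinase, read 10.87 and 10.98 against 8.08 and 9.42, and 9.48 and 9.26. Against adult cardiomyocytes the insulin-responsive glucose carrier Slc2a4 fell by 2.35 (limma adjusted p = 0.0276) and Pfkfb2 by 2.19 (limma adjusted p = 0.0198).

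Of 16 antigen presentation genes, 7 (43.8%) lay below and 0 above: Psmb9, H2-D1, H2-K1, Nlrc5, Tap1, Erap1 and Tap2. H2-D1, a class I histocompatibility heavy chain, read 9.41 and 9.26 in neonatal cardiomyocytes, 11.13 and 10.77 in fibroblasts and 10.29 and 11.32 in adult cardiomyocytes, with this sign in 7 of its 9 probe sets; near-identical class I genes can share probes. Psmb9, a subunit of the immunoproteasome, read 5.43 and 4.94 against 7.17 and 6.54, and 6.33 and 7.44. No member was past the limma threshold in either comparison, while at an unadjusted p under 0.05, 8 were lower and 0 higher than the mean of both groups. The list median was −0.84 against fibroblasts and −1.19 against adult cardiomyocytes.

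Of 24 interferon-induced genes 6 lay below (25%), and of 15 complement and acute phase genes 5 (33.3%); 0 of either list lay above. Ifit3 read 5.88 and 6.06 against 8.54 and 8.77 in fibroblasts and 6.72 and 7.39 in adult cardiomyocytes, and fell against fibroblasts (−2.68, limma adjusted p = 0.0424). Ifit1 read 5.78 and 4.35 against 7.84 and 8.03, and 5.84 and 8.10, so its margin to adult replicate 1 was narrow. The interferon count was 16 without neonatal cardiomyocyte replicate 1 (66.7%, beside 17.5% of all genes) and 13 without adult replicate 1 (54.2%, beside 9.62%), and the complement count 9 without neonatal cardiomyocyte replicate 1 (60%). Of 28 leukocyte markers, 6 lay below (21.4%; Ccl3, Cd14, C1qa, C1qc, Lyz2 and Ccl4) and 0 above. C1qa, a complement gene of macrophages, read 6.79 and 5.04 against 12.34 and 9.93, and 7.15 and 8.78. Lyz2, lysozyme of myeloid cells, read 8.73 and 8.24 against 13.63 and 11.59, and 8.87 and 10.32. The leukocyte count was 16 without neonatal cardiomyocyte replicate 1 (57.1%) and 15 without adult replicate 1 (53.6%). The median of the 28 markers lay at 6.53 and 5.07 in neonatal cardiomyocytes, 11 and 8.17 in fibroblasts and 6.28 and 7.30 in adult cardiomyocytes. Leukocyte markers and the immune lists thus both had lower medians in neonatal cardiomyocytes than in fibroblasts. Between the fibroblast replicates, the interferon medians (7.65 and 8.32) ran opposite to the leukocyte medians. The antigen presentation (7.39 and 7.06) and complement (8.67 and 6.90) medians ran the same way as the leukocyte medians. The part of leukocyte transcript in the immune lists was not tested.

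Markers of other cell types were also present. The 24 endothelial markers had medians of 8.72 and 7.66 on the neonatal cardiomyocyte arrays, 5.58 and 6.73 in fibroblasts and 8.31 and 9.47 in adult cardiomyocytes; 0 of 24 lay above or below. Of 23 fibroblast markers 0 lay above and 2 below (Dpep1 and Fap). Tcf21, a fibroblast transcription factor, fell against fibroblasts (7.37 and 7.84 against 12.31 and 12.09; −4.60, limma adjusted p = 0.0424), and Cdh11 was the only marker that rose against adult cardiomyocytes (3.96), while the list median there was −0.55 and 10 of 23 had a lower mean than both groups. The fibroblast count below was 9 without neonatal cardiomyocyte replicate 1 and 7 without adult replicate 1. Of 45 collagen and matrix genes 3 lay above (6.67%; Fbn2, Col18a1 and Hapln1) and 1 below (2.22%; Mmp3). The count below was 6 without neonatal cardiomyocyte replicate 1 or without adult replicate 1, and 4 without neonatal cardiomyocyte replicate 2; the list lay 1.83 below fibroblasts (−1.83) and 1.64 above adult cardiomyocytes. Fbn2, the fibrillin of developing tissues, read 9.84 and 9.87 against 7.24 and 8.93, and 4.46 and 4.50, and rose against adult cardiomyocytes (5.38, limma adjusted p = 0.026).

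**Figure D5:**
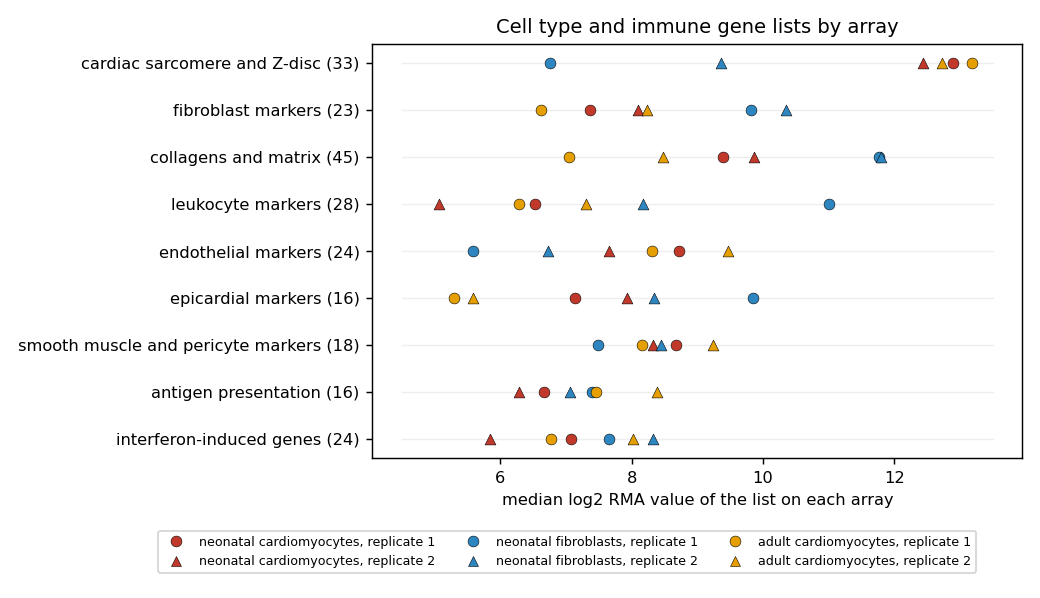
Median log2 RMA value (horizontal axis) of the measured members of 9 lists on each array; colours mark groups, circles replicate 1 and triangles replicate 2. Both neonatal cardiomyocyte arrays have the lowest antigen presentation medians, 6.66 and 6.29, while the interferon and leukocyte medians of neonatal cardiomyocyte replicate 1 lie above those of adult replicate 1.

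Among 51 growth factors and receptors, 4 lay above (7.84%; Fgf12, Bmp5, Bmp7 and Erbb2) and 2 below (3.92%; Fgf2 and Wnt11), and the list medians were 0.00 and −0.01. Fgf12, an intracellular modulator of sodium channels, read 9.0 and 8.20 against 4.18 and 4.84 in fibroblasts and 4.78 and 6.41 in adult cardiomyocytes. Erbb2, the co-receptor through which neuregulin signals in heart muscle, read 7.78 and 7.77 against 6.70 and 7.33, and 6.26 and 6.48. Its partner Erbb3 rose against fibroblasts (1.94) and Igf1r, the receptor of insulin-like growth factor 1, against adult cardiomyocytes (1.98; limma adjusted p = 0.0424 and 0.0198). The count above was 9 without neonatal cardiomyocyte replicate 1 and 10 without neonatal cardiomyocyte replicate 2; the count below was 9 and 6 without these arrays and 4 without adult replicate 1. Among 26 immediate early and heat shock genes, Atf3 (−3.31), Junb (−3.09) and Zfp36 (−3.56, at the edge of the threshold) fell against adult cardiomyocytes. All 3 are rapidly induced genes, and 1 of the 26 lay above all other arrays (3.85%), Hsp90aa1.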

How the data were processed

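Total RNA of 6 mouse heart cell preparations was measured on 1-colour Affymetrix arrays. The deposited values are log2 expression per probe set, made by the authors with RMA, per the submitters' processing notes; its version and settings are not given in the sources used here. The table holds 45101 probe sets; 64 are controls, GEO's platform annotation names 34945 to 1 gene and 932 to several, and 9160 are unnamed here. Each of 18193 genes was represented by its brightest probe set, by the mean of all 6 arrays. Upper quartiles lay between 7.448 and 7.783. No detection call exists, so differences of dim genes may be compressed.

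The 3 group means were fitted with limma 3.58.1 (lmFit, eBayes) in R 4.3.3 with 3 residual and 2.18 prior degrees of freedom; tests were two-sided, with Benjamini-Hochberg adjustment over all genes and a threshold of 0.05. Rose and fell are kept for genes past it. The script was tested on simulated data. Replicate numbers come from the titles: deviations from the group means correlated across same-numbered arrays at 0.183, 0.268 and 0.207, so the replicate number was also fitted as a block. Alternatives were grouping by title, leaving out arrays, a filter on dim genes, quantile normalization, median centring, the mean over probe sets, an intensity trend and the larger of both pairwise p-values.

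Named genes are the markers and their paralogs, the 12 farthest outside in each direction, from each list the 2 farthest outside, the genes nearest the edge of the count, and those said to be named after their values were seen; other list members past a pairwise threshold or outside all other arrays were also chosen after their values were seen. Members and lists were chosen with earlier results of these data known. Promoters are from RefSeq (GRCm38.p6); Rxfp1 is named only.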

Additional observations from a re-analysis of the deposited data

How the results depend on the processing

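Of 1265 alternative values of the named genes against the mean of both other groups, 1229 kept their direction and 36 reversed. Most named genes were chosen because their neonatal cardiomyocyte arrays lay outside all others. Leaving out arrays could not reverse such genes, so the number that kept direction is no support. Grouped by title, the reversed differences were, against the mean of both other groups, Tox3 −0.24, Tnni3 −3.20, Casq2 −2.48, Bex1 −0.10, Cited1 −0.07, Sln −0.69, Myl7 −0.40, Myl4 −0.42, Lpar3 −0.31, Kcne1 −1.02, Il6 0.17, Cd14 0.23, Wfdc17 0.08, Synpo2l −2.12, Cacna2d2 −0.01, Myocd −1.29, Dkk3 −0.32, Nppa −0.45, Pkp2 −0.39, Igf2r −0.60, Pfkp −0.22, Mmp3 0.81, C1s1 0.57, Ddit3 0.30, Fgf12 −0.07, Bmp5 −0.65, Zfp938 −0.12, Ppm1e −0.29, Myh7 −2.53, Tnnt1 −0.77, Nppb −2.02, H2-K1 0.07, Lyz2 1.06, Slc8a1 −0.61, Tbx5 −0.76; against fibroblasts, Casq1 −0.39, Tox3 −0.82, Adamts8 −0.28, Gm15934 −0.20, Myh8 −0.12, Ppm1e −0.46, Prkag2 −0.20, Rab33a −0.04, Tnnt1 −0.72; and against adult cardiomyocytes, Ppm1e −0.13. Grouping by title exchanges the replicate 1 arrays of the neonatal groups. The cardiac sarcomere median was 12.90 on the array with the source name cardiomyocytes and 6.76 on that with the source name fibroblasts. With the mean over all probe sets Slc4a1 turned to 0.16. The cause of the reversals was not tested.

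The count of genes called against the mean of both others was 0 in each direction when each array was left out (0 to 0), with the titles, without both neonatal replicate 1 arrays, with the dim filter, quantile normalization, median centring and the larger of both p-values. With the replicate block it was 0 and 0 (1509 higher and 950 lower at an unadjusted p under 0.05). With the mean over probe sets it was 1 higher (Rxfp1, adjusted p = 0.0454) and 1 lower (Ces1d, −2.82, adjusted p = 0.0454), where Ces1d differed from adult cardiomyocytes alone (−5.88 against 0.23 for fibroblasts). With an intensity trend it was 2 higher (Rxfp1, adjusted p = 0.0175, and Myh8, adjusted p = 0.0397) and 0 lower; over all alternatives the adjusted p ran from 0.0175 to 0.806 for Rxfp1 and from 0.0397 to 0.842 for Myh8.

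Genes above all other arrays numbered 1105 to 2181 and genes below 1550 to 3396 when 1 array was left out, and 2767 and 4249 without both neonatal replicate 1 arrays; fewer arrays make non-overlap easier. The dim filter left 783 above and 686 below, as it removed 75 above and 626 below. Under the other alternatives both counts stayed within 1.5 times (599 to 906 above, 1098 to 1415 below). The 599 above, with 1171 below, came from grouping by title, so similar counts do not speak for the grouping by source name. Counts of list members without single arrays were chosen after seeing the data. Dim signal limits the genes below: RMA cannot tell a low from an absent transcript.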

Other observations

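Chromosome X held 42 of 856 genes above all other arrays with a known chromosome (4.91%), 3.37% of those below and 3.41% of all genes; sex differs between the adult and the neonatal groups, and its part was not tested. TATAAA occurred in 8.49% of promoters of the genes above and 13.9% of those below, against 11.5% of array genes; AGATAA occurred in 7.32%, 11.7% and 9.54%, CATTCC in 16.4%, 17.7% and 15.3%, TNAAGTG in 11%, 13% and 11.5%, and the CArG box in 2.64%, 1.12% and 1.58%. The MEF2 motif was found in 2.78%, 2.64% and 2.51%. These shares come from windows of 250 bases before to 50 after the start on both strands, are descriptions with no test, and matches of different motifs may overlap.

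Of 16 epicardial markers, 1 lay above all other arrays, Krt19 (7.48 and 8.01 in neonatal cardiomyocytes, at most 6.94 elsewhere), a share of 6.25% beside 4.72% of all genes. The list median was −1.52 against fibroblasts and 1.89 against adult cardiomyocytes; Scel fell against fibroblasts (−5.98, limma adjusted p = 0.0424) and Tbx18 rose against adult cardiomyocytes (3.29, limma adjusted p = 0.0425). Of 13 Schwann and neural markers, 1 lay above (7.69%, Uchl1) and 3 below (23.1%, beside 7.21% of all genes): Cdh19, Th and Sox10. Th and Sox10 were near ties: Th read 4.40 and 4.50 against a lowest other array of 4.50, and Sox10 5.94 and 6.01 against 6.03. The count below was 5 without neonatal cardiomyocyte replicate 2 or without fibroblast replicate 1. Of 18 smooth muscle and pericyte markers 1 lay above (Mcam) and 1 below (Smtn), 5.56% each. Leaving out fibroblast replicate 2 put 5 of these above, and leaving out neonatal cardiomyocyte replicate 1 or adult replicate 1 put 3 below. Of 12 erythroid markers 2 lay below (16.7%; 4 without neonatal cardiomyocyte replicate 1 or without fibroblast replicate 1), and of 9 fat cell markers 0 on either side. The 2 erythroid markers, Hba-a1 and Slc4a1, were dim on every array, with gaps of only 0.11 and 0.08. Slc4a1 had this sign in only 1 of its 3 probe sets. Of 21 hypoxia and amino acid stress genes 2 lay below (9.52%; Ddit3 and Ddit4), or 6 without neonatal cardiomyocyte replicate 2 and 4 without neonatal cardiomyocyte replicate 1, while Psat1, an enzyme of serine synthesis, rose against adult cardiomyocytes by 4.41 (limma adjusted p = 0.0294).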
